A study of Mus musculus with 8 samples.

Results

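The 10 genes described here are transcripts by which macrophages are commonly recognised in whole tissue, together with the 3 chains of complement C1q. They are Adgre1, Csf1r, C1qa, C1qb, C1qc, Cd68, Mpeg1, Lyz2, Cybb and Tyrobp, taken by symbol from a table of 22183 genes, and each symbol had 1 row. The libraries were made from whole liver: 4 from Stat3flox/flox;Alb-Cre mice (knockout) and 4 from Stat3flox/flox mice (control). Stat3 encodes a transcription factor that acts downstream of cytokines such as interleukin-6. Alb-Cre drives Cre recombinase from the albumin promoter, so deletion is directed at hepatocytes and not at macrophages. Both groups carried the floxed alleles and both received 20% alcohol by daily gavage, 15 µL per g of body weight, for 2 weeks. No group without alcohol, none with Alb-Cre alone and no age were given in the labels used here. The labels number the samples without saying that each came from a separate animal, so p-values measure the spread between these samples.

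Liver macrophages comprise resident Kupffer cells, which line the sinusoids, and cells that arise from blood monocytes. Their survival depends on signals through the CSF1 receptor. They take up particles and debris into lysosomes, kill microbes with lysozyme, pore-forming proteins and reactive oxygen, and are the main source of C1q, the recognition molecule that starts the classical complement pathway. In RNA of a whole organ, fewer macrophages and less of these transcripts per macrophage cannot be told apart.

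All 10 genes had lower fitted values in knockout than in control livers (53.2% of all tested genes did), by 1.23-fold (Lyz2) to 4.36-fold (Adgre1), yet none passed an adjusted p of 0.05 across the 11692 genes tested by edgeR's quasi-likelihood test. In 9 of them every knockout library lay below control libraries 1, 2 and 4, while control 3 lay below nearly all knockouts. Lyz2, a lysozyme gene, was the exception, with values that overlapped those of the other controls. Control 3 was set apart by these same values, so this order is a description. In each of the 10 genes the coefficient of variation was smaller within knockouts than within controls. The share of all tested genes with this order was not taken, so it is not read as particular to the 10. Adgre1 still spanned 6.11-fold within knockouts, and knockout 1 lay above the other knockouts for Mpeg1.

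The libraries held 15998391 to 19474696 counts. Stat3, which checks the labels, was at 27.3, 25.1, 29.7 and 28.4 CPM (counts relative to a library's total, scaled by trimmed means) in knockouts 1 to 4, against 75.1, 72.9, 46.8 and 72.1 CPM in controls 1 to 4, a log2 fold change of −1.27 (SE 0.17, adjusted p = 0.0469, edgeR quasi-likelihood test). It was 1 of 4 genes called in all, each of them lower in knockout, or 0.0342% of those tested. Counts of 4 Y-linked genes were 2, 728, 934 and 842 in knockouts 1 to 4 and 5, 1, 1672 and 294 in controls 1 to 4. Y-linked reads were thus present in 3 knockout and 2 control libraries. Control 4, at 294, had fewer than the other libraries of that class, so its class is less certain. Control 3, which had the lowest mean level of the 10 genes, was not shallow, with 17843090 counts.

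The 2 receptors come first. Adgre1 (ENSMUSG00000004730, GRCm38 chromosome 17, 57358691 to 57483527) encodes F4/80, the adhesion receptor used to stain mouse macrophages. It was at 4.54, 0.743, 3.13 and 3.64 CPM in knockouts 1 to 4, against 25.7, 16.6, 1.07 and 9.64 CPM in controls 1 to 4. Control 3 thus stood with the knockouts, and knockout 2 was the lowest library of all. The log2 fold change was −2.12 (SE 0.73, adjusted p = 0.264). The low values rest on few reads: 11 counts in knockout 2 and 18 in control 3. For control 3 the count has an exact 95% Poisson interval of 10.7 to 28.4 counts. Such intervals cover counting error only.

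Csf1r (ENSMUSG00000024621, chromosome 18, 61100598 to 61132149) encodes the receptor for the growth factors CSF1 and IL-34. Its level was 12.1, 9.12, 11.5 and 9.94 CPM in knockouts 1 to 4, against 30.9, 41.7, 4.41 and 19.6 CPM in controls 1 to 4. The knockouts spanned only 1.33-fold and lay between control 3 and the other controls. The log2 fold change was −1.18 (SE 0.49, adjusted p = 0.321). Csf1r was the only one of the 10 genes whose estimated counts were not whole, in all 8 libraries. Its last 873 bases overlap Hmgxb3 on the other strand, and the use of strand is not given, so its reads may be shared. Hmgxb3 itself had a log2 fold change of −0.38 (adjusted p = 0.467).

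The 3 chains of C1q assemble into one protein, and their genes lie side by side on the minus strand of chromosome 4 within 18.7 kb (136880129 to 136898803). C1qa (ENSMUSG00000036887) was at 13.9, 13.6, 13.5 and 15.9 CPM in knockouts 1 to 4, against 35.8, 62.2, 7.45 and 33.5 CPM in controls 1 to 4. C1qb (ENSMUSG00000036905) was at 11.7, 10.0003, 11.2 and 14.5 CPM in the knockouts, against 37.3, 58.2, 6.26 and 33.1 CPM in the controls. C1qc (ENSMUSG00000036896) was at 14.4, 9.53, 10.5 and 14.5 CPM in the knockouts, against 37.6, 52.4, 6.20 and 29.3 CPM in the controls. All 3 chains therefore showed the same order: control 2 highest, then controls 1 and 4, then the 4 knockouts, then control 3. Their log2 fold changes were −1.29 (SE 0.45, adjusted p = 0.268), −1.51 (SE 0.48, adjusted p = 0.240) and −1.36 (SE 0.47, adjusted p = 0.266).

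Proportions of the chains varied far less than their sum. The summed C1q level was 33.1 to 44.8 CPM in knockouts and 19.9 to 173 CPM in controls. Divided by exon length, C1qa made up 44.5% ± 2.71 of C1q transcripts in knockout and 41.9% ± 2.24 in control livers (SD, n = 4 each). C1qb made up 35.1% ± 1.503 in knockout and 37.9% ± 1.56 in control, and C1qc 20.4% ± 2.44 in knockout and 20.2% ± 1.26 in control. An exact two-sided permutation test of each share over the 70 assignments of libraries gave p = 0.200 for C1qa, 0.0857 for C1qb and 0.914 for C1qc (0.300, 0.257 and 0.914 after Benjamini-Hochberg adjustment over the 3 shares, where 0.0286 is the smallest p the design allows). No difference in chain proportions was thus detected. Control 3, with the fewest C1q reads, had a C1qa share of its 334 C1q counts of 37.4% before division by length, with an exact Clopper-Pearson 95% interval of 32.2 to 42.9%.

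RefSeq promoters of build GRCm38.p6 were matched for 6 of the 10 genes (C1qb, C1qc, Cd68, Cybb, Lyz2 and Mpeg1). The 250 bases before the start were searched on both strands for GAGGAA, whose reverse complement is TTCCTC. The motif holds the core of sites for ETS factors such as PU.1, the product of Spi1 and a known regulator of macrophage genes. It occurred in 3 of the 6, and in 23.3% of 32851 promoters of the same length. The STAT palindrome TTCNNNGAA occurred in 0 of the 6, and in 7.02% of all promoters. The 3 with GAGGAA are shown 5′ to 3′ on the strand of the gene, because they include 2 neighbouring chains that varied together, and capitals mark the matches. They start 30, 193 and 225 bases before the transcription start, and a match of letters is not a binding site.
C1qb, chr4:136886201-136886450, minus strand: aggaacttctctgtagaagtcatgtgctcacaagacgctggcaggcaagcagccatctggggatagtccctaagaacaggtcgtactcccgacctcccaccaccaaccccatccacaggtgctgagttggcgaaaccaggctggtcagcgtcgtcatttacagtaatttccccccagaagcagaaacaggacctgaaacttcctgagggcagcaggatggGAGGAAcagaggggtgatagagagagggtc
C1qc, chr4:136892915-136893164, minus strand: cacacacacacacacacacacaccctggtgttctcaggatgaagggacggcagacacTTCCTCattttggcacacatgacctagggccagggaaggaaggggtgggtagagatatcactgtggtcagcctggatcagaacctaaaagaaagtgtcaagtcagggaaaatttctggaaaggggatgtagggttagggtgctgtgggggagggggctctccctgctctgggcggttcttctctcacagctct
Cd68, chr11:69666171-69666420, minus strand: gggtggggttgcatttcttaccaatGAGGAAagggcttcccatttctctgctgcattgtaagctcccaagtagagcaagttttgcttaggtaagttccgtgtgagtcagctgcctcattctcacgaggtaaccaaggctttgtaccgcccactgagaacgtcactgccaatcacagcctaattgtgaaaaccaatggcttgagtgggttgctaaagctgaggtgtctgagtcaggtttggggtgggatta

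Genes of the lysosome and of microbial killing were less uniform. Cd68 (ENSMUSG00000018774, chromosome 11, 69664213 to 69666153), a heavily glycosylated protein of macrophage lysosomes, was at 2.38, 1.55, 2.17 and 2.65 CPM in knockouts 1 to 4, against 8.05, 10.1, 0.298 and 5.04 CPM in controls 1 to 4. Control 3 stood apart at 5 counts, with an exact 95% Poisson interval of 1.62 to 11.7 counts. The log2 fold change of Cd68 was −1.42 (SE 0.66, adjusted p = 0.364).

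Mpeg1 (ENSMUSG00000046805, chromosome 19, 12460779 to 12465283) encodes perforin-2, a pore-forming protein that attacks engulfed bacteria. It was at 34.8, 19.7, 21.4 and 19.9 CPM in knockouts 1 to 4, against 142, 78.2, 20.1 and 102 CPM in controls 1 to 4. Here control 3 was level with knockouts 2 to 4, and knockout 1 lay above them. With a log2 fold change of −1.84 (SE 0.46) it had the smallest adjusted p of the 10 genes, 0.166.

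Cybb (ENSMUSG00000015340, chromosome X, 9435252 to 9487771) encodes the catalytic subunit of the phagocyte NADPH oxidase, which makes superoxide. Its level was 4.81, 2.23, 3.49 and 3.33 CPM in knockouts 1 to 4, against 18.8, 13.9, 1.01 and 7.74 CPM in controls 1 to 4. All 4 knockouts lay above control 3 and below the other controls. The log2 fold change was −1.58 (SE 0.62, adjusted p = 0.304).

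Lyz2 (ENSMUSG00000069516, chromosome 10, 117277331 to 117282321), the lysozyme M gene of macrophages and neutrophils, behaved differently. It was at 35.7, 28.4, 26.95 and 39.2 CPM in knockouts 1 to 4, against 50.2, 63.7, 11.3 and 35.004 CPM in controls 1 to 4. Knockouts 1 and 4 lay above control 4, so the groups overlapped even without control 3. The log2 fold change was −0.30 (SE 0.40, adjusted p = 0.766). Its neighbour Lyz1 is a close paralog: the longest coding transcripts were 92.0% identical, and 15.4% of the 50-base windows of Lyz2 also occurred in Lyz1. Lyz1 stayed at or below 0.312 CPM in all 8 libraries.

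Tyrobp (ENSMUSG00000030579, chromosome 7, 30413760 to 30417585) encodes DAP12, the adaptor that links activating receptors such as TREM2 to the kinase SYK. It was at 4.23, 4.39, 3.37 and 3.28 CPM in knockouts 1 to 4, against 12.7, 17.2, 2.26 and 9.54 CPM in controls 1 to 4. The knockouts again lay between control 3 and the other controls. The log2 fold change was −1.45 (SE 0.46, adjusted p = 0.239).

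**Figure D1:**
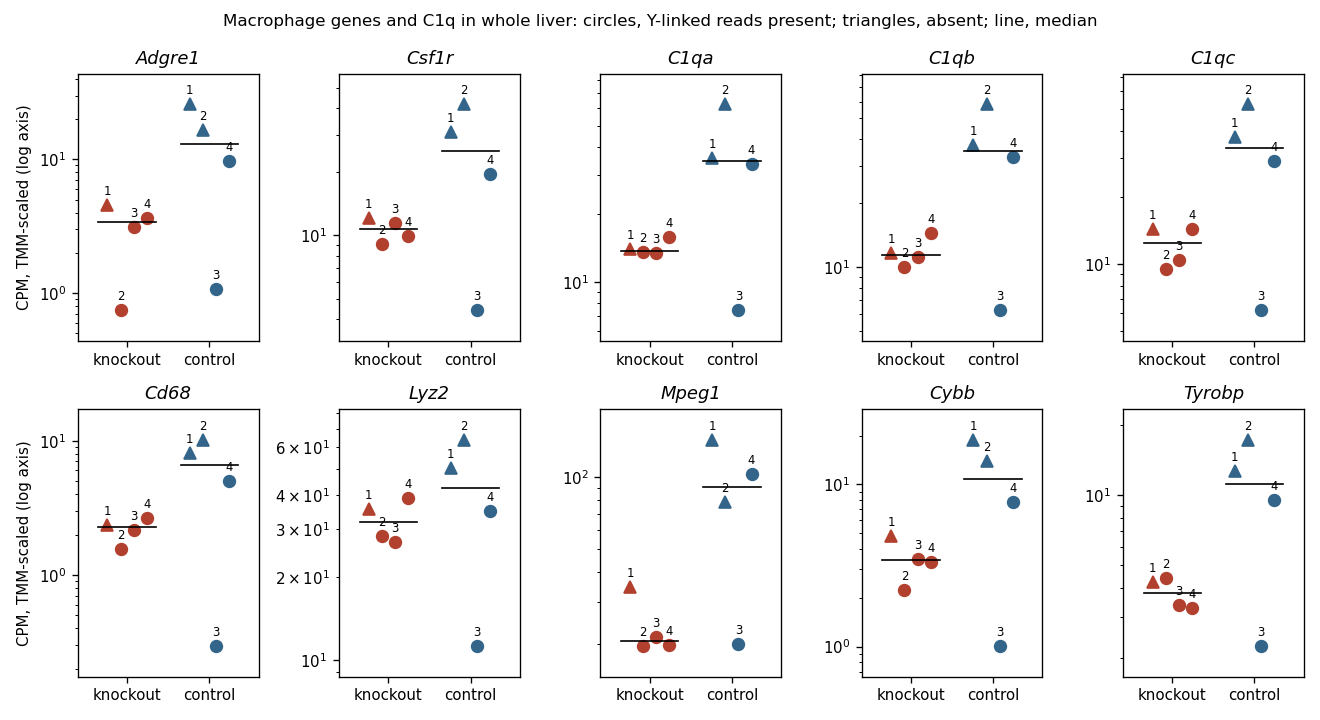
Level of each of the 10 genes in CPM (log axis) in 4 knockout and 4 control libraries, numbered, with circles for libraries with Y-linked reads, triangles for those without and a line at the group median. In 9 of 10 panels the knockouts lie below controls 1, 2 and 4, and control 3 is the lowest library in 8 of 10.

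Counts over the 10 genes stand beside the same counts over all 11692. At an unadjusted p under 0.05, 8 of the 10 genes were lower in knockout (Cd68 at 0.0560 and Lyz2 at 0.470 were not), against 8.47% of all tested genes. At an adjusted p under 0.05 in the same edgeR test it was 0 of 10, against 0.0342% of all genes lower, with adjusted p values of 0.166 to 0.766. DESeq2 called 1 of the 10, Tyrobp (adjusted p = 0.0491), against 1.39% of genes lower, and limma-voom called 0 (1 lower at an unadjusted p under 0.05, against 6.47% of all genes). The median log2 fold change of the 10 was −1.43, beside −0.03 over all tested genes. Groups overlapped in 10 of the 10 genes, whereas in 3.86% of all genes every knockout lay below every control. All 4 knockouts lay below controls 1, 2 and 4 in 9 of the 10 genes, against 10.1% of all genes.

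In edgeR the number of calls among the 10 genes changed with the inclusion of control 3. It was the lowest of the 8 libraries in 8 of the 10 genes, against 17.6% of all tested genes, at 0.0385 (Cd68) to 0.227 (Lyz2) of the mean of the other controls. Within knockouts the coefficient of variation was 7.88% (C1qa) to 53.8% (Adgre1), and within controls 56.1% (Lyz2) to 78.9% (Adgre1). When control 3 was left out, 9 of the 10 genes fell (edgeR quasi-likelihood test, adjusted p 0.00323 to 0.0232), against 2.23% of 11902 genes, with a median log2 fold change of −1.79. Among them C1qb had a value of −1.85 (SE 0.22), Mpeg1 −2.16 (SE 0.26), Tyrobp −1.78 (SE 0.23) and Adgre1 −2.50 (SE 0.47). Lyz2 was not called (−0.60, SE 0.22, adjusted p = 0.157). Leaving out the lowest control of these genes enlarges their difference and narrows the control spread, so these calls are no independent support. The labels give no reason to set control 3 aside, and none of the 7 fits that left out another single library called any of the 10.

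Within each genotype, the mean level of the 10 genes was lower in libraries with Y-linked reads. The mean log2 level of the 10, centred over 8 libraries, was −0.22 in knockout 1 and −0.87 to −0.37 in knockouts 2 to 4, against 1.37 and 1.52 in controls 1 and 2, −1.67 in control 3 and 0.77 in control 4. Within each genotype, libraries without Y-linked reads were thus the highest by this mean. Gene by gene this order did not always hold. Knockout 4 lay above knockout 1 for C1qa, C1qb, C1qc, Cd68 and Lyz2, and knockout 2 did so for Tyrobp. Control 4 lay above control 2 for Mpeg1. Among libraries without Y-linked reads, knockout 1 lay below both controls 1 and 2 in all 10 genes. Among those with them, knockouts 2 to 4 lay below control 4 in 9 genes (all but Lyz2) and between controls 3 and 4 in 7. No share over all genes was taken for these orders, and each compares few libraries. They describe the values and are no support for a difference within a class. When the model also held the class of a library by Y-linked reads, 0 of the 10 were called by edgeR (adjusted p from 0.168, against 0.128% of genes called lower), and 5 were lower at an unadjusted p under 0.05, against 6.87% of all genes. The log2 fold changes were −1.62 for Mpeg1, −1.17 for C1qb, −0.71 for Csf1r and 0.06 for Lyz2. In the 5 libraries with Y-linked reads alone they were −1.59 for Mpeg1, −0.73 for C1qb, −0.25 for Csf1r and 0.44 for Lyz2, again with 0 calls by edgeR against 0.428% of genes called lower. Mpeg1 alone was lower at an unadjusted p under 0.05, against 8.27% of all genes. The labels do not give the sex of the mice.

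**Figure D2:**
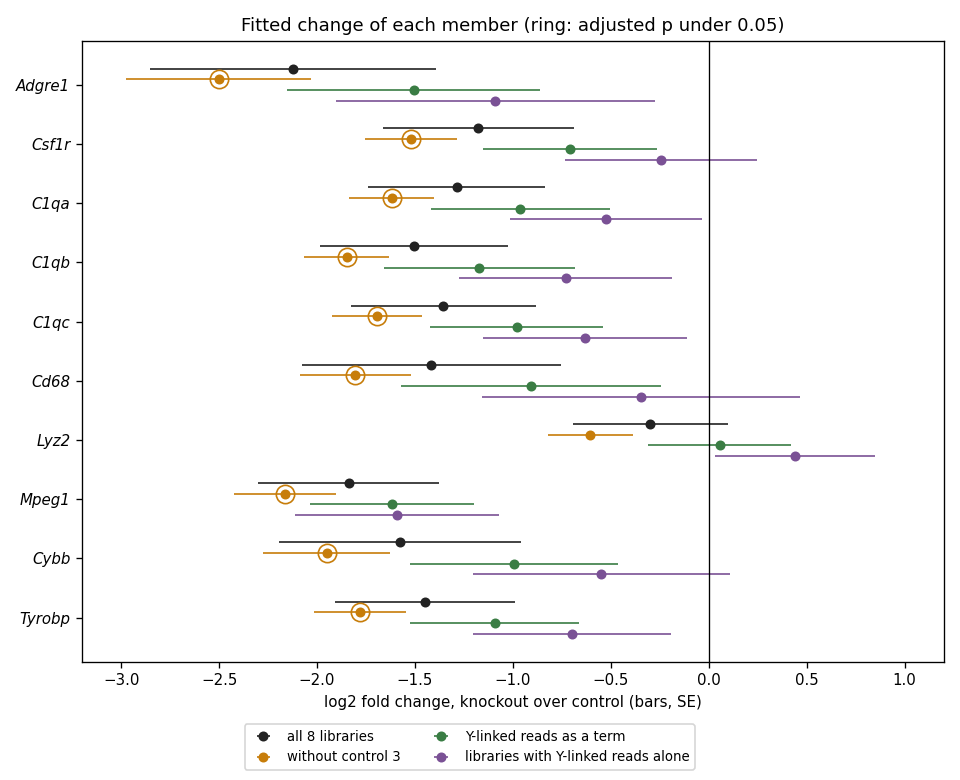
Fitted log2 fold change of each gene, knockout over control, with its SE as a bar, in 4 fits distinguished by colour; rings mark an adjusted p under 0.05. Rings appear only in the fit without control 3, for 9 of 10 genes, and Mpeg1 has about the same value in both fits that take Y-linked reads into account.

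Lyz2 had the highest level per length in all 4 knockouts and in controls 1 and 3, and C1qa in controls 2 and 4. In CPM per kb of exon, knockout livers had 24.7 ± 4.44 for Lyz2, 13.7 ± 1.08 for C1qa, 10.9 ± 1.74 for C1qb and 6.33 ± 1.34 for C1qc (SD, n = 4). Tyrobp at 5.72 ± 0.861 and Mpeg1 at 5.53 ± 1.67 were within 1 SD of C1qc. Csf1r at 1.85 ± 0.238 and Cd68 at 1.74 ± 0.372 could not be separated, and Adgre1 at 0.931 ± 0.501 and Cybb at 0.596 ± 0.182 were lowest. In control livers C1qa at 33.4 ± 21.5, C1qb at 31.0 ± 19.6 and Lyz2 at 30.4 ± 17.1 stood together at the top, followed by Mpeg1 at 19.8 ± 11.8, C1qc at 16.2 ± 10.003 and Tyrobp at 15.7 ± 9.45. Cd68 at 4.68 ± 3.40, Csf1r at 4.18 ± 2.76, Adgre1 at 4.10 ± 3.23 and Cybb at 1.78 ± 1.33 were lower. In control livers neighbours in this order differed by less than the larger of their SDs, except Tyrobp and Cd68.

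Relative to C1q the other genes differed in pattern. This ratio within a library does not depend on scaling between libraries, and it was chosen after the values were seen, so no test is given. Lyz2 had 89.1, 85.7, 76.7 and 87.5 counts per 100 C1q counts in knockouts 1 to 4, against 45.3, 36.9, 56.6 and 36.5 in controls 1 to 4. The groups did not overlap for this ratio, control 3 included, as in 2.59% of 11689 tested genes with knockouts higher. Its mean was 1.93 times as high in knockout as in control, beside a median of 1.39 times over those genes, of which 11.3% exceeded Lyz2. For Csf1r the ratio was 22.2 to 32.7 in knockouts and 20.4 to 27.9 in controls, and for Tyrobp 7.32 to 13.3 in knockouts and 9.95 to 11.5 in controls, with overlapping ranges for both. Mpeg1 had 44.5 to 86.8 in knockouts and 45.3 to 129 in controls, where control 2 was lowest and the other controls lay above every knockout. Adgre1 was at 2.24 per 100 C1q counts in knockout 2, against 8.13 to 11.3 in the other knockouts and 5.39 to 23.2 in controls. Cd68 was at 4.69 to 6.16 in knockouts and at 5.26 to 7.27 in controls 1, 2 and 4, and at 1.497 in control 3. Cybb ranged from 6.73 to 12.005 in knockouts and from 5.09 to 17.0 in controls.

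**Figure D3:**
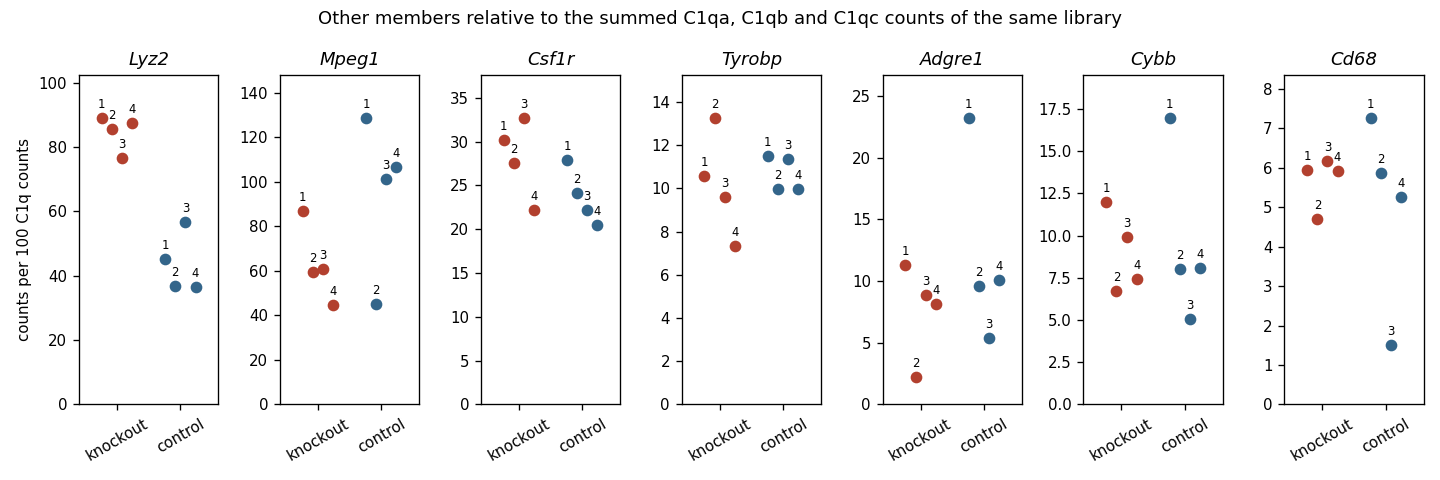
Counts of 7 genes per 100 summed C1qa, C1qb and C1qc counts of the same library, one panel per gene with its own axis from 0, knockouts left and controls right, numbered by library. For Lyz2 the 4 knockouts, at 76.7 to 89.1, lie above the 4 controls, at 36.5 to 56.6, while the other 6 genes overlap between groups.

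The genes most like the set were sought among 9800 genes whose mean log2 CPM was 1 or more, by the root mean square difference between a gene's centred log2 CPM and the mean profile of the 10 over the 8 libraries. Nearest were Pld4, a nuclease of endolysosomes (0.133), Sdc3, a syndecan (0.143), Cd44, the hyaluronan receptor (0.149), Itgal, an integrin chain of leukocytes (0.179), and Clec4f, a lectin of Kupffer cells (0.189), beside a median of 1.09 over the 9800. Clec4f, for example, was at 22.8, 11.7, 17.2 and 17.4 CPM in knockouts 1 to 4, against 74.9, 95.7, 8.22 and 48.8 CPM in controls 1 to 4. Set against the mean of the other 9, C1qc ranked 4, Csf1r 8, C1qb 10, C1qa 14, Cybb 21 and Tyrobp 24, with Cd68 at 83, Mpeg1 at 102, Lyz2 at 148 and Adgre1 at 502.

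Lists of related genes were read in the same fit, where edgeR called none of their members at an adjusted p of 0.05, so the counts here are at an unadjusted p under 0.05, against 8.47% of all genes lower and 5.55% higher. Of 18 Kupffer cell markers tested, 11 were lower and 1 was higher. The scavenger receptor Marco was at 4.03 ± 1.70 CPM in knockout and 41.5 ± 29.8 CPM in control (SD, n = 4 each, log2 fold change −3.36, SE 0.88, adjusted p = 0.175). The iron exporter Slc40a1 had −0.85 (SE 0.22, adjusted p = 0.175). The 1 higher was Cd207, which encodes langerin, at 2.56 ± 0.646 CPM in knockout and 0.604 ± 0.257 CPM in control (2.07, SE 0.38, adjusted p = 0.0761). Of 24 other leukocyte genes, 15 were lower and 1, Fcgr2b, was higher, led by Aif1 (−1.82, SE 0.38, adjusted p = 0.0950), Cd300a (−1.81, SE 0.49) and the Fc receptor gene Fcgr4 (−2.33, SE 0.65). Monocyte and monocyte-derived macrophage markers had 4 of 13 lower, Plac8, Ms4a6c and Itgax with the smallest p (−1.23, −1.69 and −0.95, adjusted p 0.272 to 0.330). Their summed level was 62.5 to 81.6 CPM in knockouts and 91.1 to 162 CPM in controls, the 162 being control 3, where Spp1, the osteopontin gene, alone reached 143 CPM. The medians were −1.36 for the Kupffer list, −1.31 for the other leukocyte genes and −0.80 for the monocyte list, beside −0.03 over all genes. Without control 3 edgeR called 12 Kupffer markers, 14 other leukocyte genes and 4 monocyte markers lower, and Cd207 higher, against 2.23% of genes lower. By mean log2 level control 3 was the lowest library in each of these lists (−1.55, −1.22 and −1.02), so these calls are no independent support.

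Partners of single members followed. Of 7 genes of the NADPH oxidase and its proton channel, 1 was lower and 1, the channel Hvcn1 (1.36, SE 0.60), was higher, and the membrane subunit Cyba had −0.87 (SE 0.40). Values were negative in 5 of the 7, against 53.2% of all tested genes, and the list's median was −0.76. Of 9 tested receptors and kinases around TYROBP, 4 were lower, among them the SRC-family kinase Fgr (−1.504, SE 0.54) and the adaptor Fcer1g (−0.998, SE 0.38). All 9 had negative values, with a median of −0.998. A further 11 of that list were too low to test. Of 11 ligands and regulators around the CSF1 receptor, 0 passed the unadjusted threshold in edgeR, and the median was 0.02. Among them the ubiquitin ligase gene Cbl had −0.44, the transcription factor gene Irf8 −0.57 and the phosphatase gene Ptpn6 0.21. Csf1, the ligand gene, was at 5.30 CPM in knockout and 5.03 CPM in control on average and was named after its values were seen. Among 19 phagosome and lysosome genes 5 were lower, including the peptide transporter Slc15a3 (−1.57, SE 0.43) and the cysteine proteases Ctss (−1.67, SE 0.50) and Lgmn (−1.09, SE 0.34), and the list's median was −0.23.

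Complement beyond C1q, which is made largely by hepatocytes, showed another order of libraries. Of 9 genes that follow C1q or regulate it, 5 were lower. C4b, cleaved by activated C1, was at 394 ± 24.3 CPM in knockout and 788 ± 185 CPM in control (−0.999, SE 0.20, adjusted p = 0.0820). C3 had −0.99 (SE 0.25, adjusted p = 0.174), and Serping1, the C1 inhibitor, had −0.76 (SE 0.19, adjusted p = 0.168). The mean level of this list was −0.34 to −0.23 log2 in knockouts and 0.10 to 0.41 in controls, control 3 being lowest of its group but above every knockout. C1s1, a protease that binds C1q and was named after its values were seen, had 0.03 (SE 0.15). Receptors of C1q and C1q-related genes had 1 of 9 higher, C1qtnf12 (1.53, SE 0.54), and none lower, with C1qbp at 0.39 and Lrp1 at −0.18.

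Markers of other cells also differed by library. Hepatocyte markers, which define the tissue, had a mean level between −0.26 log2 (control 1) and 0.16 log2 (control 3) over the 8 libraries. Their summed level spread more, from 116046 to 168746 CPM in knockouts and from 128014 to 354648 CPM in controls, with control 3 at 128385 CPM. Ttr (0.65) was higher and Hnf4a (−0.43) lower at an unadjusted p under 0.05, with Apob at −0.37. Of 12 sinusoidal endothelial markers, 1 was higher (Fcgr2b, 0.41, with Gpr182 at 0.47 and Oit3 at 0.42), and their summed level was 202 to 232 CPM in knockouts and 111 to 245 CPM in controls, the 111 being control 3. Stellate and fibroblast markers had 4 of 13 higher, among them Acta2 (1.52), Lrat (0.65) and Reln (0.60). B lineage markers summed to 82.1 to 637 CPM in knockouts and 12.5 to 26.2 CPM in controls, with Ighm (4.81), Igkc (3.06) and Jchain (2.42) the leading genes and 4 of 6 higher. T and NK cell markers summed to 5.20 to 7.96 CPM in knockouts and 1.91 to 17.4 CPM in controls, lowest in control 3, with 1 of 6 lower (Gzma at −2.61, beside Cd4 at −0.61 and Gzmb at −0.71). Of neutrophil markers, 3 of 13 could be tested and 1 was lower (Csf3r at −1.18, beside S100a8 at 0.45 and S100a9 at 0.36), and the list summed to 1.35 to 7.34 CPM in knockouts and 1.97 to 5.67 CPM in controls. Dendritic cell markers had 0 of 5 below an unadjusted p of 0.05, with Bst2 at −0.43 and Zbtb46 at 0.35. The part of these cells in the levels of the 10 genes was not tested.

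**Figure D4:**
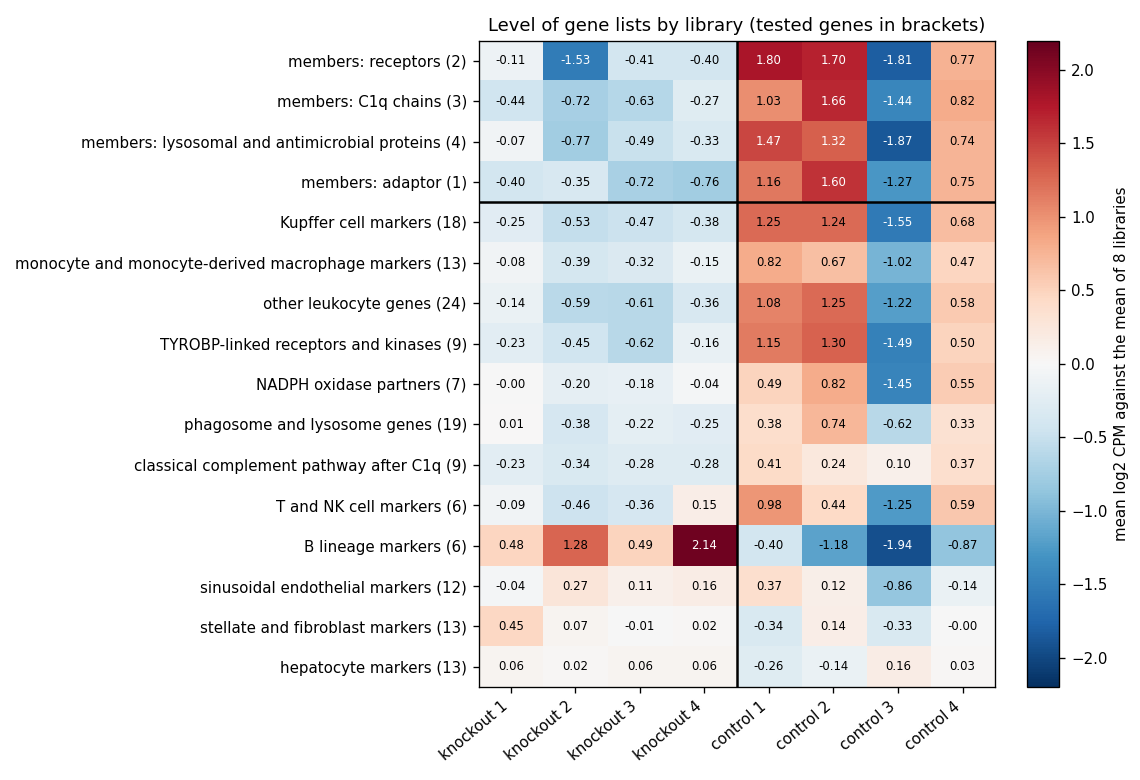
Mean log2 CPM of each gene list against its mean over 8 libraries, with the 4 knockouts left of the 4 controls, the number of tested genes in brackets and the 10 genes described here (members) above the horizontal line. Control 3 is the lowest library in every row except complement after C1q, stellate and fibroblast markers and hepatocyte markers. Hepatocyte markers are highest in control 3 (0.16) and lowest in controls 1 (−0.26) and 2 (−0.14).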

How the data were processed

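Per the labels' protocols, liver RNA was extracted with Trizol and read on an Illumina HiSeq X10 instrument. The submitters' processing notes name CASAVA 1.8, Bowtie, TopHat2 and GRCm38. Neither the counting step, nor the annotation, nor any use of strand is stated in those sources. The authors' deposited table holds estimated counts (expected counts) per gene, not normalized, of which 94.2% were whole.

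Counts were rounded, filtered by filterByExpr, scaled by TMM and compared by edgeR's quasi-likelihood test (edgeR 4.0.16, R 4.3.3) without covariates, with Benjamini-Hochberg adjustment over all 11692 genes. DESeq2 1.42.0 and limma-voom (limma 3.58.1) were alternatives. The standard error is the fold change divided by the root of the F statistic. List levels use log2 CPM with a prior count of 2. Positions and exon lengths come from GENCODE M21 (GRCm38), which held 99.8% of the identifiers. Y-linked reads were called present above 10 summed counts of Ddx3y, Kdm5d, Uty and Eif2s3y. No 2 libraries of the same genotype agreed within sampling noise.

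The 10 members and the lists were chosen with earlier results of these data known. The genes named are Stat3, the 10 members, up to 3 of each list with the smallest p, and the 5 most like the members, taken from genes whose mean log2 CPM was 1 or more. Some genes that this rule names are not reported here. C1s1, Csf1, Hmgxb3, Lyz1 and Spp1 were added after their values were seen. Y-linked genes enter only as the class of a library.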

Additional observations from a re-analysis of the deposited data

Results flagged for a closer look

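Each genotype's 4 values of Stat3 and the 10 genes were searched for a library far from its group, in 22 groups of 4, where chance alone marks about 5% of groups. Control 3 stood apart for Stat3, at 46.8 CPM with the nearest control at 72.1 CPM. Knockout 1 stood apart for Mpeg1, at 34.8 CPM with the nearest knockout at 21.4 CPM. It is the knockout library without Y-linked reads. The low values of control 3 in the 10 genes themselves were not marked by this search, since the other controls also spread widely.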

How the results depend on the processing

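With 4 genes called by edgeR in all 8 libraries, other settings gave 5 with DESeq2 size factors, 11 with upper-quartile scaling, 1 with library size alone, 62 with no filter on low counts, 8 with at least 1 CPM in 4 libraries, 6 with robust dispersions, 269 with DESeq2, 0 with limma-voom (1485 at an unadjusted p under 0.05), 27 with Y-linked reads as a term, 125 in libraries with Y-linked reads alone, 187 without controls 2 and 3, 79 at an adjusted p under 0.1, and 0 to 324 when 1 library was left out. The model with the replicate block called 0 genes (1773 at an unadjusted p under 0.05) and 0 of the 10, with a median of −1.14 for them, and 5 of 8 samples correlated best with their own number. Correlations of deviations between same-numbered samples were −0.25 to 0.32, not all above 0.1, so the numbers were not taken to pair the samples.

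Of the 10 macrophage and C1q genes, 0 were called in the main comparison and 1 by DESeq2. Without controls 2 and 3, 8 were called (Adgre1 and Lyz2 not called), against 1.33% of 12148 genes called lower. When 1 library was left out, 0 to 9 were called, the 9 being without control 3. Both settings with many calls leave out control 3, the lowest control of these genes, so the calls are no independent support. Their median log2 fold change ranged from −1.79 (without control 3) to −1.07 (without control 2) over single libraries left out, and was −0.99 with Y-linked reads as a term and −0.59 among libraries with them. Lyz2 changed sign with Y-linked reads as a term (0.056), among libraries with them (0.44) and without control 2 (0.016, its range over libraries left out being −0.60 to 0.016). The difference in the C1qc share, 0.17 percentage points, ranged from −0.914 to 0.912 when 1 library was left out. The cause of these shifts was not tested. Low counts limit Cd68 (5 counts in control 3), Adgre1 (11 in knockout 2) and Cybb (17 in control 3).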
